A study of Mus musculus with 6 samples.

Results

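The 10 genes described here encode parts of the synaptonemal complex, the meiotic chromosome axis and the meiotic cohesin ring: Sycp1, Sycp2, Sycp3, Syce1, Syce2, Tex12, Hormad1, Smc1b, Rec8 and Stag3. They were taken by symbol from a table of 24028 genes measured in germinal vesicle oocytes of the mouse, and all 10 were found in it. Of the 6 libraries, 3 came from females with the genotype Ring1 -/-; Rnf2 f/f and Zp3-cre (dKO) and 3 from Ring1 -/-; Rnf2 f/f females without the transgene (control). Both groups therefore lacked Ring1, shared a mixed background of FVB, 129/Sv and C57BL/6J, and were about 3 months old. Zp3-cre is active in growing oocytes, which are arrested late in meiotic prophase, after the chromosomes have paired and recombined, and it removes Rnf2, which encodes RING1B, the ubiquitin ligase paralogous to RING1 in Polycomb repressive complex 1 (PRC1). Each library held 15 oocytes of 1 female, so p-values measure the spread between these samples. Only dKO females carried the transgene, so its own effect and that of losing Rnf2 cannot be told apart. In pooled oocytes, more oocytes with a transcript and more transcript per oocyte cannot be told apart either.

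The synaptonemal complex is a protein zipper that joins homologous chromosomes during meiotic prophase. SYCP2 and SYCP3 form the lateral elements along each chromosome axis, SYCP1 filaments span the gap, and the central element proteins SYCE1, SYCE2 and TEX12 hold the filaments together. HORMAD1 marks axes that are not yet paired. SMC1B, REC8 and STAG3 are meiosis-specific subunits of cohesin, the ring that holds sister chromatids together. In females this machinery is built in the fetal ovary and the zipper is taken down before birth or shortly after, whereas cohesin must hold until ovulation.

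The labels were checked on Rnf2 and on oocyte markers. Rnf2 stood at 9.51 ± 4.82 FPKM in dKO oocytes and at 49.6 ± 3.62 FPKM in controls (SD, n = 3), where FPKM is the number of sequenced fragments scaled by transcript length and sequencing depth. All 12 oocyte markers were above the filter on low values, led by Gdf9, Zp3 and Ooep with control means of 2436, 1437 and 1211 FPKM. Of the 12, 4 were lower in dKO oocytes (limma, with 9 at an unadjusted p under 0.05), against 7.04% of all tested genes. The median log2 change of the 12 was -0.61, and their summed level was 9268 to 9641 FPKM in controls against 5391 to 7533 FPKM with dKO. Of 15 granulosa and cumulus markers 7 passed that filter (at least 1 FPKM in at least 3 libraries). In dKO oocytes 0 of the 7 were lower and 4 were higher, against 14.0% higher of all tested genes. Of these 4, Fshr, Inhba and Has2 were below 1 FPKM in every control and passed the filter through their dKO values. The summed level of all 15 was 27.2 to 33.4 FPKM in controls and 51.3 to 52.0 FPKM in dKO oocytes. The markers below the filter were Ptx3, at 0 in all libraries, and Amh, Foxl2, Cyp11a1, Hsd17b1, Nr5a1, Fst and Gatm, at or below 1.035 FPKM in each. Fshr, the receptor for follicle-stimulating hormone, moved most, from 0.158 ± 0.0183 to 10.6 ± 1.23 FPKM, while Nr5a2 and Cyp19a1 had the highest means over all libraries. Nr5a2 averaged 16.5 FPKM in controls and 25.5 FPKM with dKO, and Cyp19a1 averaged 9.94 and 5.78 FPKM, with every dKO library below the controls but an adjusted p of 0.05004 (limma), which misses the threshold. The calls of the other higher genes, Nr5a2, Inhba and Has2, were each lost without control replicate 2 and under 1 or more other settings (limma adjusted p up to 0.271). Of 12 markers of theca, stroma, endothelium and blood only Pecam1 was tested, and it was lower in dKO oocytes. The summed level of these 12, nearly all of it Pecam1, was 21.1 to 29.0 FPKM in controls and 16.4 to 19.5 FPKM in dKO libraries. Without Pecam1 the sum was 0.362 to 0.747 FPKM in controls against 1.74 to 5.25 FPKM with dKO. For 5 of these 11 genes (Dcn, Lhcgr, Col1a1, Col3a1 and Ptprc), all below the filter, each dKO library lay above all controls. Of all tested genes 22.3% did so, but these 5 were not tested, and no share was computed over genes below the filter. Dcn, a stromal proteoglycan gene, averaged 0.207 FPKM in controls and 1.41 FPKM with dKO. Lhcgr, Col1a1, Col3a1 and Ptprc averaged 0.0272 to 0.280 FPKM with dKO. Lyz2 held 0, 0.0702 and 2.85 FPKM in dKO replicates 1 to 3, and Hbb-b1 was at 0 throughout. The part of any of these shifts in the results was not tested. Absolute depth is unknown, and depth relative to control replicate 1, read from low values, was lowest in dKO replicate 1, at 0.661.

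In dKO oocytes 6 of the 10 genes were higher than in controls and 0 were lower by limma, also at an unadjusted p under 0.05. The 6 were Sycp1, Syce1, Tex12, Sycp3, Hormad1 and Smc1b, and their values in the 3 dKO libraries lay above those of all 3 controls. Syce2, Sycp2 and Stag3 did not pass the threshold, and Rec8 was below the filter and not tested. Of all 11334 genes tested, 14.0% were higher and 7.04% lower at an adjusted p under 0.05, and the groups did not overlap at 41.5%, with dKO above at 22.3%. The 9 tested members had a median change of 1.35 on the log2(FPKM + 1) scale, against -0.02 over all genes. That scale understates the changes of low genes. Hormad1 reached 1 FPKM in 0 control libraries and Syce1 in 1, so both passed the filter through their dKO values. These calls and the counts that hold them are therefore a description. Of tested genes with a control mean under 1 FPKM, 77.4% were higher in dKO oocytes, against 7.77% of the others. Hormad1 belongs to the former, and Syce1, with a control mean of 1.01 FPKM, lies at the edge of the latter.

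The promoters of the 6 higher genes, and of Stag3 for contrast, are shown because genes that moved together can be read side by side. A form of PRC1 that holds PCGF6 is known to reach germline genes through partner proteins that bind the E-box (CACGTG) and the E2F core (TCCCGC). Both strings were searched on both strands of the 300-base RefSeq windows, build GRCm38.p6, 250 bases before to 50 bases after the start of transcription. No matches overlapped, and capitals mark each match, with GCGGGA as the E2F core on the other strand.
Sycp3, chr10:88459337-88459636, + strand: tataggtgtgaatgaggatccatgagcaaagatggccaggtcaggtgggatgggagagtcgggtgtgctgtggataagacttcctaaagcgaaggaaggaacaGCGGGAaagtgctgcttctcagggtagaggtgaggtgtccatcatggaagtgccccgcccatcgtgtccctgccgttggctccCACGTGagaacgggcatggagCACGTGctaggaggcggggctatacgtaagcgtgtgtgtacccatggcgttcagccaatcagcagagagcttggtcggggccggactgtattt
Hormad1, chr3:95559427-95559726, + strand: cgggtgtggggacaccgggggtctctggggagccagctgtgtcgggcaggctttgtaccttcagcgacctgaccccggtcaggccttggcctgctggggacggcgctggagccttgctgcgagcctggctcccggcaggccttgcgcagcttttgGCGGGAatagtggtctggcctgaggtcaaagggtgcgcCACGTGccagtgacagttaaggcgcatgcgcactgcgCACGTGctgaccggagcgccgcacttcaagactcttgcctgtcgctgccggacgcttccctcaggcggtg
Sycp1, chr3:102936051-102936350, - strand: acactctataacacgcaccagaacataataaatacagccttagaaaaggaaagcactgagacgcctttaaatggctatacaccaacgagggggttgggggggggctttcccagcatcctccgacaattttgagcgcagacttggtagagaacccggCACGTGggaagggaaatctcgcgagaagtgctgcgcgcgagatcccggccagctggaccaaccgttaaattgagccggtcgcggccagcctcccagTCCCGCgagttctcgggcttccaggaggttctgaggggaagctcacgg
Tex12, chr9:50561219-50561518, - strand: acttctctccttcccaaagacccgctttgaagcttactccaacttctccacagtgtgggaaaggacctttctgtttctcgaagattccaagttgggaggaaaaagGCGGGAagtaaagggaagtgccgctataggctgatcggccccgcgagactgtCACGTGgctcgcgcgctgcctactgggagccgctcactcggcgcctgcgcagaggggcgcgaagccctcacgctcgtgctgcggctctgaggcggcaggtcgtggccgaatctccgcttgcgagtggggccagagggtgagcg
Smc1b, chr15:85131908-85132207, - strand: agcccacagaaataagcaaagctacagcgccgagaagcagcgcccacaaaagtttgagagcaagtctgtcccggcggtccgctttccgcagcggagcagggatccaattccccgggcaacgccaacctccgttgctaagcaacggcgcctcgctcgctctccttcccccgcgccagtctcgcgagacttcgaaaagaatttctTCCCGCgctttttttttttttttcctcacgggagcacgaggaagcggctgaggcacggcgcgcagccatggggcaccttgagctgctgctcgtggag
Syce1, chr7:140787805-140788104, - strand: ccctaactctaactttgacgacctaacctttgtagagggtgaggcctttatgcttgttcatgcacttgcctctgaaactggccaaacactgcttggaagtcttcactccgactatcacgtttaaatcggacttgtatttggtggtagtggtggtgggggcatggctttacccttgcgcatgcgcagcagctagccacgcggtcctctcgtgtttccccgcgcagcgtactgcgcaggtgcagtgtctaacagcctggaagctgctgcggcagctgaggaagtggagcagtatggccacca
Stag3, chr5:138280259-138280558, + strand: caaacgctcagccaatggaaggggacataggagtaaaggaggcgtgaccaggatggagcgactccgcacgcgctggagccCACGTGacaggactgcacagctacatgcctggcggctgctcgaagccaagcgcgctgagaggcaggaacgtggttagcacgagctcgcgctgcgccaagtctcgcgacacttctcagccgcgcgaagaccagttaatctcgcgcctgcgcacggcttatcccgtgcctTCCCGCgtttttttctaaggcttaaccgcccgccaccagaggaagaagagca

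Sycp3 and Hormad1 each held 2 E-boxes and 1 E2F core, Sycp1 and Tex12 held 1 of each, and Smc1b held an E2F core alone. Syce1, which had the largest log2 change, held neither. Stag3, which was not past the threshold, held 1 of each. An E-box stood in the first listed window of 4 of the 6 higher genes and of 1 of the 4 others. For the E2F core these numbers were 5 and 3. A link between the strings and the changes was not tested. In the first listed window Syce2 and Rec8 held an E2F core alone and Sycp2 neither. A further Syce2 window, 147 bases downstream, held 1 E-box and 2 E2F cores. Counting the first listed window of each gene, 5 of 10 members held both strings, against 2.05% of all 27025 genes. Counting any listed window, 6 of 10 members did. Of all 32851 windows 1.99% held both, 7.15% an E-box and 19.98% an E2F core. Among the 8534 tested genes whose symbol matched a window, 3.996% held both, and among the 1174 higher genes 5.28% did. The first listed windows of the members had 10 to 30 CpG sites and the further Syce2 window 33, where the median over all windows was 7 and that of tested genes was 21. A match is a description of the letters and not evidence of binding.

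**Figure D1:**
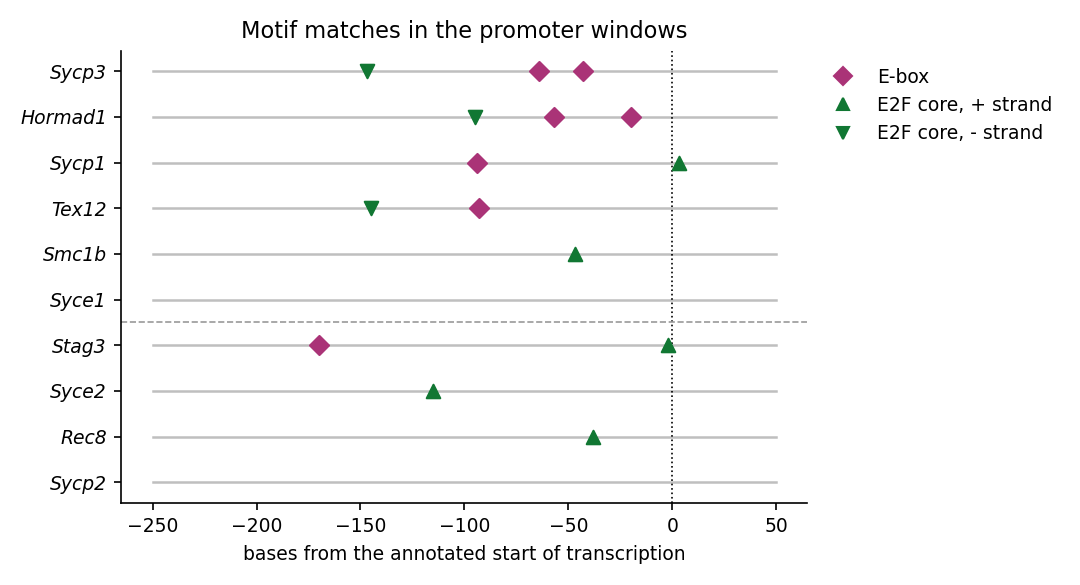
Matches of the E-box and the E2F core in the first listed promoter window of each of the 10 genes, by distance in bases of the first base of the match from the annotated start of transcription (dotted line). Genes above the dashed line were higher in dKO oocytes; Sycp3 and Hormad1 carry 2 E-boxes each within 64 bases of the start, and Syce1 and Sycp2 carry no match.

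Among the genes of the central region, Syce1, Sycp1 and Tex12 were higher in dKO oocytes. Syce1, which encodes a central element protein that binds SYCP1, held 0.818, 1.41 and 0.802 FPKM in control replicates 1 to 3 and 18.4, 17.5 and 20.4 FPKM in dKO replicates 1 to 3. The groups did not overlap, with the lowest dKO library 12.4 times the highest control, and the dKO libraries were close to each other. The ratio of group means was 18.6 and the log2 rise 3.31 ± 0.21 (SE), with a limma adjusted p of 2.17e-05. By size of rise it ranked 56 among the 11334 tested genes.

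Sycp1, the transverse filament gene, held 2.81, 2.34 and 1.54 FPKM in controls and 8.95, 4.95 and 8.64 FPKM in dKO libraries. Replicates 1 and 3 of the dKO group were high and replicate 2 was nearer to the controls. The ratio of means was 3.37 and the log2 rise 1.38 ± 0.27 (SE), with a limma adjusted p of 0.00700. Tex12, whose protein pairs with SYCE2, held 15.7, 11.03 and 15.1 FPKM in controls and 64.4, 35.0 and 20.5 FPKM in dKO libraries. Its dKO libraries spread over 3.14 times, and the lowest of them, replicate 3, stood only 1.30 times above the highest control. The log2 rise was 1.32 ± 0.36 (SE), with a limma adjusted p of 0.0302. This call held without dKO replicate 3 and was lost when any of the other 5 libraries was left out, with adjusted p from 0.0535 without dKO replicate 1 to 0.103 without control replicate 2, and with no filter on low values (0.0967).

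Syce2, the partner of Tex12 in the central element, was the most abundant of the 10 genes and did not pass the threshold. It held 347, 329.8 and 375 FPKM in controls and 388, 369 and 358 FPKM in dKO libraries, so the groups overlapped. The log2 change was 0.08, with a 95% interval of -0.27 to 0.43 (limma adjusted p = 0.731). With each library centred on its mean the sign of the Syce2 change turned, to -0.022.

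Of the lateral element and axis genes, Sycp3 and Hormad1 were higher and Sycp2 was not past the threshold. Sycp3, the gene of the main lateral element protein, held 22.3, 23.5 and 23.9 FPKM in controls and 290.02, 142.1 and 216 FPKM in dKO libraries. The coefficient of variation was 3.57% in controls and 34.2% in dKO libraries, and the lowest dKO library was 5.95 times the highest control. The ratio of means was 9.32 and the log2 rise 3.11 ± 0.24 (SE), with a limma adjusted p of 5.25e-05. In the annotation 52.2% of Sycp3 exon bases overlap exons of Chpt1, a gene of phospholipid synthesis on the other strand, and the use of strand is not given in the sources used here. Chpt1 itself averaged 0.547 FPKM in controls against 2.18 FPKM with dKO, a log2 rise of 1.01 (limma adjusted p = 0.0152), and its listed level was far below that of Sycp3. Chpt1 was below 1 FPKM in every control and passed the filter through its dKO values, so its call is a description. The Chpt1 call was lost with no filter on low values, after quantile normalization and without control replicate 2 or 3 (limma adjusted p up to 0.225). None of the other 9 genes shared exon bases with an annotated gene.

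Hormad1, the axis gene, held 0.157, 0.196 and 0.152 FPKM in controls and 7.22, 2.68 and 4.04 FPKM in dKO libraries. The controls were all near 0, and the lowest dKO library was 13.6 times the highest of them. The ratio of means was 27.6, the largest of the 10 genes, and the log2 rise was 2.19 ± 0.28 (SE), with a limma adjusted p of 0.000771. Sycp2, the partner of Sycp3 in the lateral element, held 12.8, 9.35 and 11.5 FPKM in controls and 22.1, 13.0 and 10.2 FPKM in dKO libraries. Replicate 1 of the dKO group stood above all other libraries and replicate 3 lay among the controls. The log2 change was 0.34, with a 95% interval of -0.27 to 0.96 (limma adjusted p = 0.398).

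**Figure D2:**
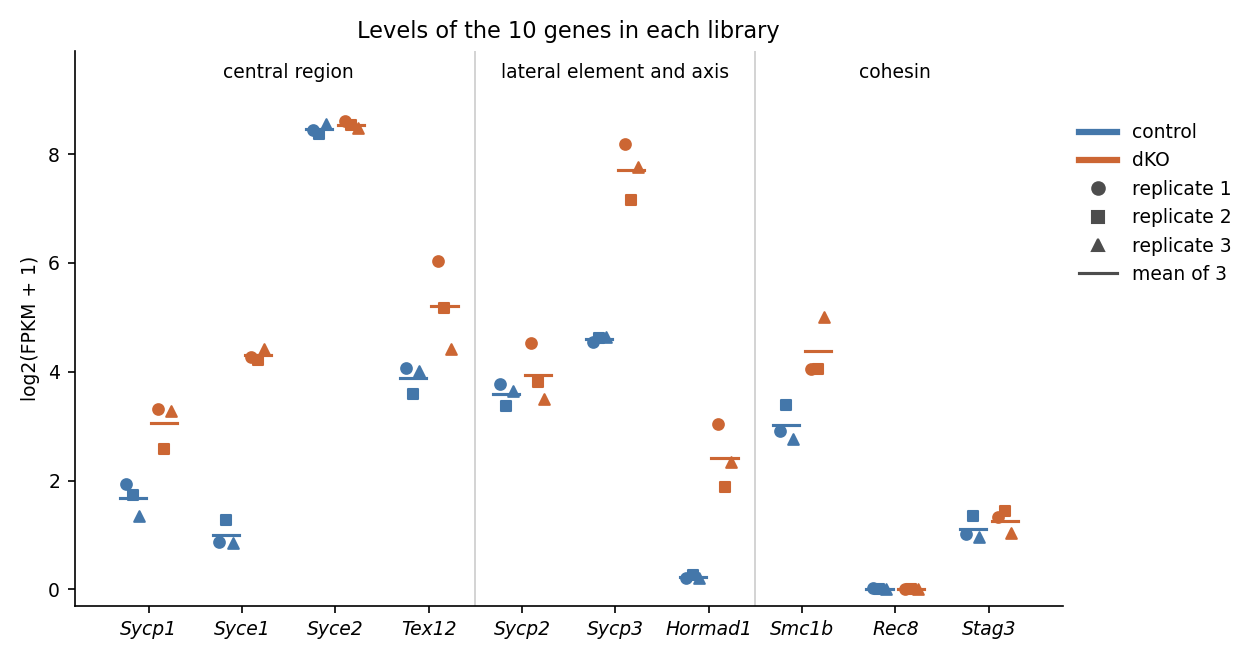
Level of each of the 10 genes in each library as log2(FPKM + 1), with controls in blue, dKO libraries in orange, a marker for each replicate number and a line at the mean of 3 libraries. The groups do not overlap for Sycp1, Syce1, Tex12, Sycp3, Hormad1 and Smc1b, and Syce2 is high in every library. Rec8 is listed at or near 0, which can be a failed estimate.

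Among the meiotic cohesin genes, Smc1b alone was called. Smc1b, the meiotic member of the SMC pair, held 6.47, 9.47 and 5.80 FPKM in controls and 15.6, 15.6 and 31.2 FPKM in dKO libraries. Replicate 3 of the dKO group was high and the other two were nearly equal, both above every control. The ratio of means was 2.87 and the log2 rise 1.35 ± 0.29 (SE), with a limma adjusted p of 0.0119, and the call was lost without control replicate 3 (0.0557). Stag3, the meiotic STAG subunit, held 1.02, 1.53 and 0.940 FPKM in controls and 1.51, 1.71 and 1.04 FPKM in dKO libraries. The groups overlapped, and the log2 change was 0.16, with a 95% interval of -0.28 to 0.61 (limma adjusted p = 0.590). After quantile normalization its sign turned, to -0.25. Rec8, which encodes the meiotic kleisin that closes the ring, was at 0.0174 FPKM in control replicate 1 and listed at 0 in the other 5 libraries. A listed 0 can be a failed estimate, so no fold is given.

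The meiotic subunits could be set beside the paralogues that act in mitosis, since FPKM is a level per length. Smc1b was at 26.8%, 35.8% and 23.3% of Smc1a in controls and at 76.4%, 82.0% and 96.9% in dKO oocytes, and these ranges lay apart. Smc1a itself had a log2 change of -0.11 (limma adjusted p = 0.745). Rad21l, a further meiotic kleisin, made up 2.05 ± 0.480% of Rad21 in controls against 4.82 ± 1.46% with dKO (SD, n = 3), again with no overlap. Stag3 made up 14.0 ± 2.85% of Stag1 in controls against 12.8 ± 5.74% with dKO, and 13.5 ± 2.63% and 12.1 ± 3.51% of Stag2 (SD, n = 3), with overlap in each case. Stag1 itself averaged 8.21 FPKM in controls and 11.9 FPKM with dKO, and Stag2 8.50 and 12.0 FPKM. For both, every dKO library lay above all controls, as at 22.3% of all tested genes, but neither passed the threshold. Rec8 was at 0.0359% of Rad21 in control replicate 1.

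**Figure D3:**
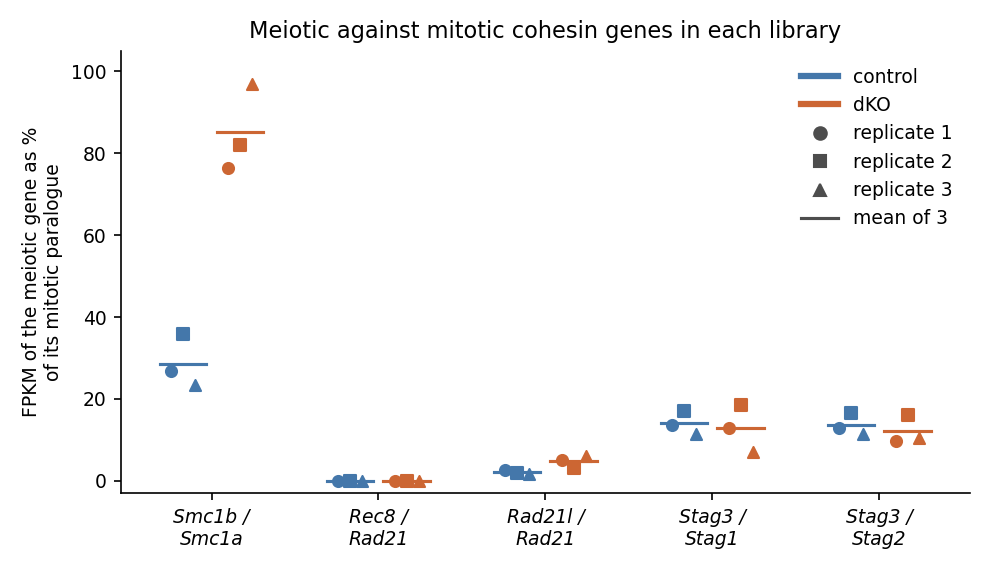
FPKM of each meiotic cohesin gene as a percentage of its mitotic paralogue in each library, with a line at the mean of 3 libraries. Only the Smc1b to Smc1a and Rad21l to Rad21 percentages are higher in all dKO libraries than in all controls. Rec8 is listed at or near 0% throughout, which can be a failed estimate.

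The order of the levels changed between the groups. In controls it was Syce2 (351 FPKM), Sycp3 (23.2), Tex12 (13.96), Sycp2 (11.2), Smc1b (7.24), Sycp1 (2.23), Stag3 (1.16), Syce1 (1.01), Hormad1 (0.168) and Rec8. Neighbours with overlapping ranges were Tex12 and Sycp2, Sycp2 and Smc1b, and Stag3 and Syce1. In dKO oocytes it was Syce2 (372), Sycp3 (216), Tex12 (39.98), Smc1b (20.8), Syce1 (18.8), Sycp2 (15.1), Sycp1 (7.52), Hormad1 (4.64), Stag3 (1.42) and Rec8. Overlap there joined Tex12, Smc1b, Syce1 and Sycp2 in a row, and Sycp1 with Hormad1. Syce2 made up 85.4% of the summed FPKM of the 10 genes in controls and 53.4% in dKO oocytes, and Sycp3 5.65% and 31.1%.

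The dKO libraries did not rank alike for all members. Of the 6 higher genes, 4 were highest in dKO replicate 1 (Sycp1, Sycp3, Tex12 and Hormad1) and 2 in replicate 3 (Syce1 and Smc1b). Replicate 2 was the lowest of the dKO libraries for 5 of them, all but Tex12. Rnf2 held 14.8, 8.44 and 5.31 FPKM in dKO replicates 1 to 3, and a link to these ranks was not tested. Libraries of the same replicate number shared a sequencing lane. Within each of the 3 lanes the dKO library was the higher for each of the 6 genes, which follows from groups that do not overlap. The direction within lanes is therefore no separate result. Within lanes 3, 4 and 6 the log2 differences were 3.64, 2.55 and 3.13 for Sycp3, 3.42, 2.94 and 3.57 for Syce1 and 2.83, 1.62 and 2.13 for Hormad1. They were 1.39, 0.83 and 1.93 for Sycp1, 1.97, 1.58 and 0.41 for Tex12 and 1.15, 0.66 and 2.24 for Smc1b.

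Of 26 listed other genes of the complex, the axis, telomere attachment and recombination, 17 were tested, of which 5 were higher and 1 lower in dKO oocytes, with a median log2 change of 0.09. Over all tested genes the shares were 14.0% higher and 7.04% lower, and the median was -0.02. The 5 were Ccdc36, 4930447C04Rik, Ccnb1ip1, Rec114 and Mei4, the last 2 named after their values were seen. Ccdc36 (also Iho1), which binds HORMAD1 at unpaired axes and recruits MEI4 and REC114 for DNA break formation, went from 1.54 ± 1.04 to 8.11 ± 1.12 FPKM (SD, n = 3; log2 change 1.91, limma adjusted p = 0.00189). 4930447C04Rik (also Six6os1), a central element gene whose protein binds SYCE1, held 0.0377, 0 and 0 FPKM in controls and 5.65, 2.13 and 1.29 FPKM in dKO libraries. It passed the filter through its dKO values alone, so its place among the 5 is a description. Ccnb1ip1, a ubiquitin ligase gene of crossover formation, went from 1.38 ± 0.710 to 6.57 ± 1.29 FPKM (SD, n = 3; limma adjusted p = 0.00200). Rec114 and Mei4 had log2 changes of 0.90 and 0.65 (limma adjusted p = 0.0163 and 0.0376).

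The Rec114 call was lost without control replicate 2 or 3, with limma adjusted p up to 0.0793. That of Mei4 was lost on leaving out any 1 library other than dKO replicate 2 (up to 0.152) and with quantile normalization, mean centring and array weights. Syce3, the remaining central element gene, was listed at 0 in each control and held 0.997, 0.327 and 0.122 FPKM with dKO, below the filter, and was named after its values were seen. Spo11, the nuclease that starts meiotic recombination, was listed at 0 in all libraries. The 1 lower gene was Sun1, which anchors telomeres at the nuclear envelope, at 17.4 ± 1.07 and 11.4 ± 1.47 FPKM (SD, n = 3; limma adjusted p = 0.0445). Its call was lost under a replicate block, which takes the lane as a term (limma adjusted p = 0.0626), with array weights, with the filter at 5 FPKM and on leaving out dKO replicate 1 or any 1 control (up to 0.184).

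A list of 5 mitotic cohesin subunits and the meiotic Rad21l held 1 called gene of 6, and a list of cohesin regulators 1 of 16, against 21.0% of all tested genes called in either direction. Rad21l was higher, at 1.26, 0.856 and 0.824 FPKM in controls and 3.41, 1.81 and 2.55 FPKM in dKO libraries (log2 rise 0.84, limma adjusted p = 0.0260), and the 5 mitotic subunits Smc1a, Smc3, Rad21, Stag1 and Stag2 did not pass the threshold. Rad21l reached 1 FPKM in 1 control and passed the filter through its dKO values, so its place in that count is a description. Its control mean was 0.980 FPKM, and of tested genes with a control mean under 1 FPKM 77.4% were higher. The Rad21l call was lost on leaving out dKO replicate 1 or any 1 control, with no filter and after quantile normalization (limma adjusted p up to 0.183). Of 16 genes that load, release, acetylate, protect or cleave cohesin, 0 were higher and 1 was lower (limma; 1 and 3 at an unadjusted p under 0.05), with a median log2 change of -0.15. It was Hdac8, the SMC3 deacetylase, at 5.36 ± 0.0869 and 2.62 ± 0.892 FPKM (SD, n = 3; limma adjusted p = 0.0309), whose call was lost on leaving out dKO replicate 1 or any 1 control and with no filter (up to 0.111).

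**Figure D4:**
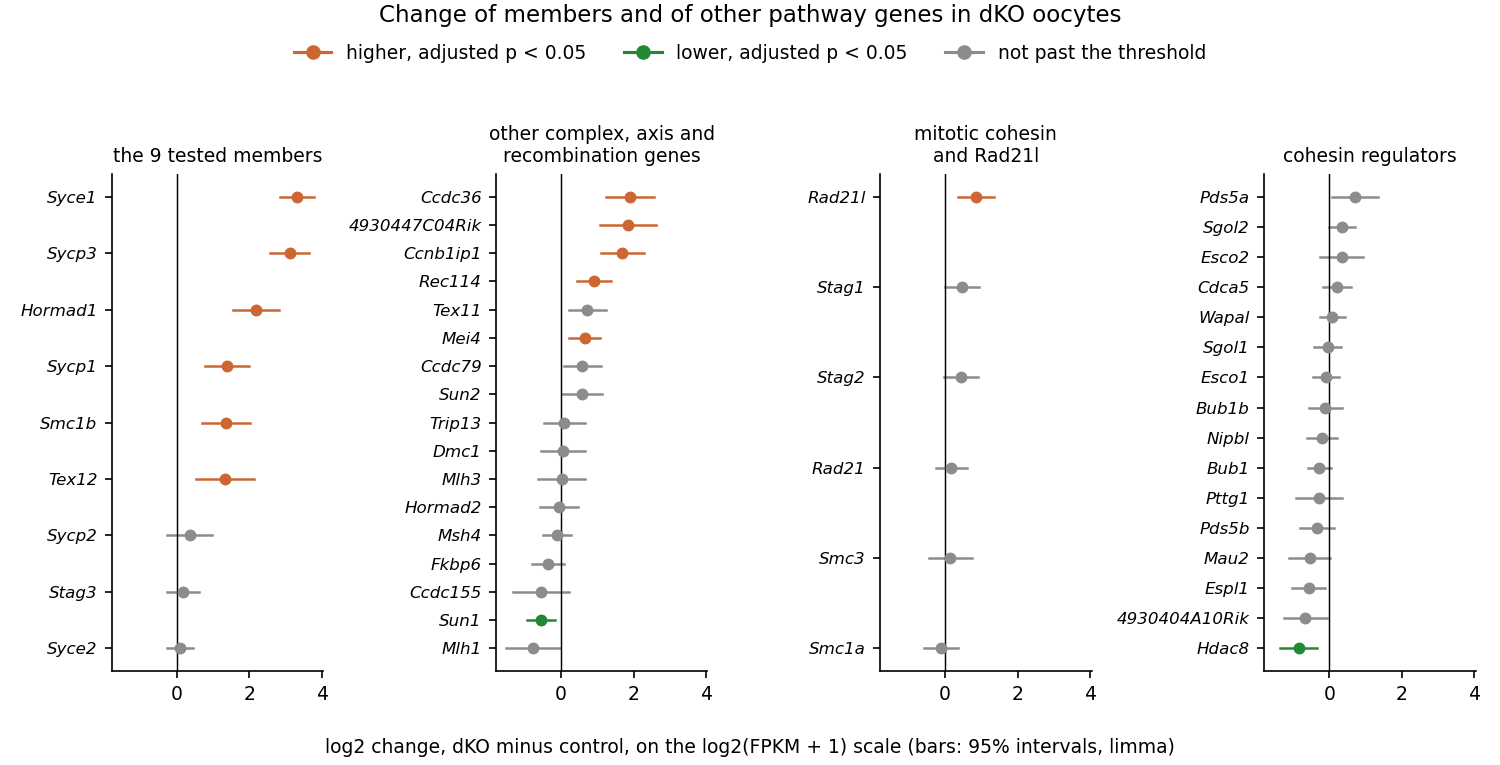
Log2 change, dKO minus control, of the 9 tested members and of the tested genes of 3 pathway lists, with 95% intervals from limma that are not adjusted for the number of genes. Orange marks genes that were higher and green those that were lower at an adjusted p under 0.05: 6 members, 5 other complex, axis and recombination genes and Rad21l were higher, and Sun1 and Hdac8 were lower.

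Genes of meiotic entry were also read. Of 12 listed genes 8 were tested, of which 2 were higher and 0 lower by limma, also at an unadjusted p under 0.05. The median log2 change was -0.02. Over all tested genes 14.0% were higher and 7.04% lower at an adjusted p under 0.05. Gm1564 (now Meioc), which keeps germ cells in the meiotic prophase programme, held 0.405, 0.358 and 0.829 FPKM in controls and 20.0, 14.8 and 10.8 FPKM in dKO libraries. It reached 1 FPKM in 0 controls and passed the filter through its dKO values, so its place among the 2 is a description. Mael, a piRNA pathway gene, went from 29.0 ± 3.099 to 90.3 ± 5.87 FPKM (SD, n = 3; limma adjusted p = 0.000132). Stra8, the gate to meiosis in the fetal ovary, was listed at 0 in all libraries. None of the 6 tested subunits that mark the PCGF6 form of PRC1 passed the threshold (limma; 1 higher and 1 lower at an unadjusted p under 0.05), and the most abundant, Max and Pcgf6, averaged 178 and 137 FPKM in controls against 205 and 139.9 FPKM with dKO.

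The neighbours of the 6 higher genes were read from the gene order, after the values of the members were seen. Of their 12 nearest protein-coding genes, taken by coordinate order, 4 were tested, of which 1 was higher and 1 lower. Over all tested genes 14.0% were higher and 7.04% lower. The higher one was Chpt1, which overlaps Sycp3 rather than lying beside it, and the lower one was Golph3l beside Hormad1. Chpt1 passed the filter through its dKO values, so its place in these counts is a description. Ribc2 starts 114 bases from Smc1b on the other strand. It held 0.3998, 0.0492 and 0 FPKM in controls and 0.168, 0.0828 and 0.144 FPKM in dKO libraries, below the filter in both groups.

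The 5 genes whose profile over the 6 libraries was most like that of Syce1 were Pcp4l1, Sall3, Prps2, Shox2 and Cd47. Likeness was the root mean square difference of log2(FPKM + 1) values centred on each gene's mean, and it was 0.126 to 0.160 log2 units for these 5. Their control means were 0.202 to 0.501 FPKM and their dKO means 9.75 to 14.9 FPKM. Sycp3 was the nearest member, at 0.325 log2 units with 49 tested genes nearer, a count that includes predicted genes. These distances are a description of 6 libraries in 2 groups.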

How the data were processed

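Total RNA of 15 pooled oocytes per library was amplified and sequenced, per the labels' protocols. The deposited values are FPKM. The submitters' processing notes name TopHat2 2.0.11, Cufflinks 2.0.2 and the build mm9. What each tool did, the annotation, strand use and library scaling: not given in the sources used here. Of 24525 rows 497 repeated a symbol with all its values and were removed. The filter of 1 FPKM or more in 3 or more libraries left 11334 genes. On log2(FPKM + 1) values, limma 3.58.1 (R 4.3.3) was run with eBayes and trend, unpaired and two-sided, on 3 dKO against 3 control libraries. Adjusted p-values are Benjamini-Hochberg values over these genes, threshold 0.05, and the fit was tested on simulated data.

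The members, lists and the rule for named genes were chosen with earlier results of these data known. The rule takes Rnf2 and Ring1, all members, up to 3 rising and 3 falling called genes of each list or else the 2 of the highest mean, the 2 most abundant markers of other cell types, 3 oocyte markers and 5 genes most like the member with the largest change. Ring1 stood at 0.0498 and 0.121 FPKM in controls and dKO oocytes. List symbols were matched directly or through RefSeq synonyms. Promoter sequences came from RefSeq (GRCm38.p6), while exon overlap and gene order came from GENCODE M21 on GRCm38, so no coordinate was joined to the mm9 table. Proteins were not analysed here.

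Per the labels, libraries of the same number shared a lane, which pairs them. Libraries 1, 2 and 3 of the groups deviated from the group means with correlations of 0.147, 0.107 and 0.0637. Each group carried its own sequencing index, and an effect of the index cannot be told apart from that of genotype. The 10 other settings, beside leaving out each of the 6 libraries, were other pseudocounts, filters, scalings and variance models and the replicate block.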

Additional observations from a re-analysis of the deposited data

How the results depend on the processing

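The 6 calls were recomputed under the 10 other settings and without each library, and 4 of them (Sycp3, Syce1, Hormad1 and Sycp1) passed the threshold wherever they were tested. With the filter at 5 FPKM, Hormad1, Sycp1 and Stag3 were not tested. Tex12 missed the threshold with no filter on low values (log2 change 1.32, limma adjusted p = 0.0967), and its log2 change was 0.91 to 1.71 without 1 library. Smc1b had log2 changes of 1.04 to 1.54 without 1 library. The number of higher members was 4 to 6 throughout. Changes with reversed sign were those of Syce2 with each library centred on its mean (-0.022) and Stag3 after quantile normalization (-0.25), neither past the threshold. The cause was not tested. Mean centring put the median of all genes at -0.12, against -0.02 on the deposited scale. With the replicate number as a block all 6 higher members kept their calls, with Tex12 at a limma adjusted p of 0.00812, and 1681 genes were higher and 887 lower over all genes.

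Over all genes, 1587 were higher and 798 lower. The filter at 5 FPKM, which tests fewer genes, gave 655 higher. Mean centring gave 1452 higher and 1572 lower (48.0% higher, against 66.5%), and quantile normalization 1191 and 1073 (52.6%). Leaving out 1 library gave 231 to 1465 lower and 1087 to 1869 higher: the lower genes numbered 258, 262 and 231 without control replicates 1, 2 and 3, and 1465 without dKO replicate 2. Over the 5 pathway lists, recomputed under the same settings after seeing the data, 8 genes were higher and 2 lower. The lists held 17, 6, 16, 8 and 6 tested genes, and over all tested genes 14.0% were higher and 7.04% lower. Of the 8, 4930447C04Rik, Gm1564 and Rad21l passed the filter through their dKO values, so the count is a description. For these lists, leaving out 1 library gave 5 to 12 higher (5 without control replicate 2 or 3) and 0 to 7 lower (0 without dKO replicate 1 or any 1 control, and 7 without dKO replicate 2). The lower genes numbered 1 with no filter, the filter at 5 FPKM, array weights or the replicate block, and 5 with mean centring. The difference in Smc1b as a share of Smc1a, 56.4 percentage points, was 50.5 to 60.8 without 1 library. Depth relative to control replicate 1 was lowest in dKO replicates 1 and 2 (0.661 and 0.805), so low values are less precise there, and no counting interval is given.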
